A study of Mus musculus with 31 samples.

Results

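Small heat shock proteins and BAG cochaperones were followed in ISR-competent and ISR-null mouse squamous cell carcinoma (SCC) cells under proteasome inhibition. The group held 9 genes, chosen by name and found by Entrez identifier among 20704 genes counted for ribosome-protected fragments (RPFs) and 24593 counted for total RNA. It comprised 3 small heat shock proteins (Hspb1, Hspb8 and Cryab) and 6 BAG genes (Bag1 to Bag6). All 9 members were present in both tables and passed the filter on low counts in each.

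By the labels, the cells of every group came from an HRasG12V-transformed skin SCC line that was TgfbrIIfl/fl. The study instead lists the lines used here as TgfbrII D/D, with this TGFβ receptor gene deleted. Endogenous Eif2s1, the gene of eIF2α, had been ablated in all of them and a myc-tagged eIF2α transgene put in its place from a lentivirus under the PGK promoter. The transgene kept the phosphorylated serine in S51 cells, which can run the integrated stress response (ISR), and had alanine in its place in S51A cells, which cannot. Both lines were grown from single-cell clones, and the sources used here do not tie a library to a clone, so that a difference between lines cannot be told apart from one between clones. Each line received vehicle or 100 nM bortezomib, a proteasome inhibitor, for 4.5 h by the labels, whereas the study's figure legend gives 4 h. RPFs were sequenced from 3 S51 vehicle lysates and from 4 lysates of each other group, and total RNA from 4 lysates of every group. The replicates are called technical in one place and independent in another, so the p-values measure the spread between these samples, which may be technical.

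Small heat shock proteins are ATP-independent chaperones that bind unfolding proteins and hold them for refolding or disposal. Most BAG proteins carry a domain that grips the ATPase of HSP70 and makes it release its client. BAG3 joins HSP70 to HSPB8 and steers aggregating clients towards selective autophagy, whereas BAG1 links HSP70 to the proteasome. Genes of this kind are classic targets of heat shock factor 1, which binds inverted repeats of a short unit in promoters when unfolded protein accumulates.

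To show the repeats, promoter windows of RefSeq (build GRCm38.p6, 250 bases before to 50 bases after a start site) were read for the 7 members that matched. Of these, 3 held a pair of inverted heat shock units, spelled GAANNTTC or TTCNNGAA and read on both strands. Such a pair occurred in 15.1% of the 32851 windows of the same length, so a match alone is common. Hspb1 held a pair that began 117 bases before the start and another that began 97 bases before it. The single pairs of Hspb8 and Bag3 began 2 and 42 bases after the start. No window of Bag1, Bag2, Bag5 or Bag6 held these letters, which says nothing of more distant sites. None of the 7 held a run of 3 alternating units, found in 0.603% of windows, or the ATF4-CHOP type site TGATGNAA, found in 3.97%. The pair of Bag3 ends at the last base of its window, so a further unit past it could not have been read. Cryab and Bag4 had no matching window, so their promoters were not read. The 250 bases before the start of Hspb1 (chr5:135887669-135887918, plus strand) are shown with the paired units in capitals, as are windows of 30 bases around the pairs of Hspb8 (chr5:116422845-116422874, minus strand) and Bag3 (chr7:128523603-128523632, plus strand).
Hspb1: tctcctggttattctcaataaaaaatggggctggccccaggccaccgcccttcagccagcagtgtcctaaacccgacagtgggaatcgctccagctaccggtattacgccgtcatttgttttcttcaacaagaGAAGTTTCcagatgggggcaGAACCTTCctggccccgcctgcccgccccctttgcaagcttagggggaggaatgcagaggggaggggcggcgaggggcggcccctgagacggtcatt
Hspb8: cagaagccaggaGAAGTTTCtaggctcgcg
Bag3: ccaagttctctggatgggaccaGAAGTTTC

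Libraries held 1038826 to 4902237 counts on genes for RPF and 18758668 to 22994713 for total RNA, so RPF values carry the larger counting error. Values are given as CPM, read counts scaled to a common library size by TMM, and describe a gene's share of each library, in which fewer expressing cells and less RNA per cell cannot be told apart. All 8 keratinocyte and SCC markers were present, with Krt14 at a median of 5694 CPM of total RNA. Summed over the list, they ran from 11140.2 to 11725 CPM in S51 vehicle, from 13708 to 15994 in S51 bortezomib, from 14109 to 14195 in S51A vehicle and from 14654 to 16062 in S51A bortezomib. Of 8 markers of other cell types, Col1a2 was at 0 in every library. Cd68 ran from 3.27 to 7.21 CPM and Pdgfra from 2.69 to 6.94 CPM over the total RNA libraries. The list summed to 6.85 to 8.22 CPM in S51 vehicle and 8.29 to 9.64 in S51 bortezomib. It summed to 10.6 to 13.1 CPM in S51A vehicle and 10.8 to 13.6 in S51A bortezomib. The part of these shifts in the results was not tested. Eif2s1, in which transgene and endogenous reads are counted together, had group means of 286.6 to 309.6 CPM in total RNA. In RPF it lay at 162, 81.2 and 171 CPM in the 3 S51 vehicle libraries, so that replicate 2 stood apart from the others. The same library was the highest of its group for 8 of the 9 members, and calls of members lost without it are given with the value that remains.

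Bortezomib raised Hspb1, Hspb8, Cryab and Bag3 in both lines, in RPF as in total RNA, whereas the other 5 BAG genes changed less or in other ways. An effect was called at an adjusted p below 0.05 with a fold above 1.5, from the quasi-likelihood test of edgeR, with p-values adjusted by Benjamini-Hochberg over all genes tested. Shares of all genes are of genes called in this way, unless an adjusted p alone is named. In S51 cells 4 of 9 members were called in RPF, all higher, and 5 of 9 in total RNA, all higher, beside 18.6% of all genes tested in RPF and 15.3% in total RNA. In S51A cells 5 of 9 were called in RPF, 4 higher and 1 lower, and 6 of 9 in total RNA, 5 higher and 1 lower, beside 10.9% and 13.1% of all genes. At an adjusted p alone, 8 of 9 members passed in S51 total RNA and 9 of 9 in S51A, beside 59.8% and 56.4% of all genes. The median log2 difference of the members in RPF was 0.06 in S51 and 0.43 in S51A, against 8.7e-06 and -0.01 over all genes tested.

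**Figure D1:**
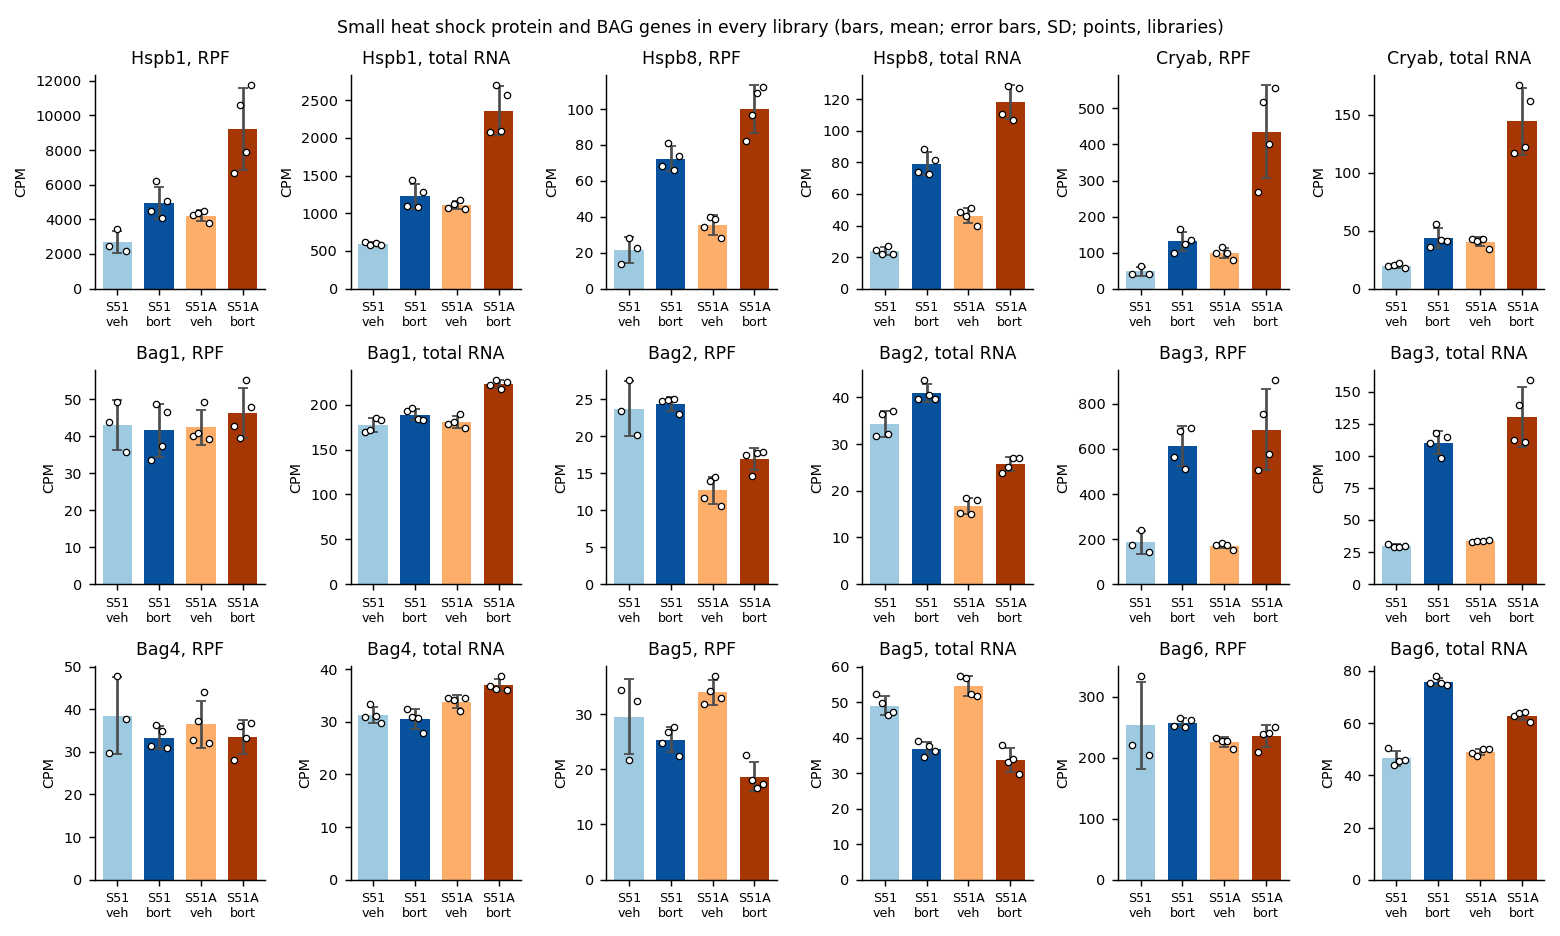
Every library's level of the 9 members, in CPM on a linear axis from 0, with RPF and total RNA in neighbouring panels. Bars are group means, error bars the SD and points the libraries (3 in RPF S51 vehicle, 4 elsewhere). Hspb1, Hspb8, Cryab and Bag3 stand higher with bortezomib in both lines, with no overlap of treated and vehicle libraries within a line.

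Hspb1 (HSP27) encodes a chaperone that also steadies actin filaments. Its RPF level was 2462, 3429.6 and 2169 CPM in S51 vehicle and 4473, 6209, 4101 and 5083 CPM in S51 bortezomib. In S51A it was 4221, 4345, 4503 and 3761 CPM with vehicle and 6679, 10585, 7862 and 11769.6 CPM with bortezomib. Treated and vehicle libraries did not overlap in either line, and all S51A bortezomib libraries exceeded all S51 bortezomib libraries. The log2 difference in RPF was 0.89 ± 0.17 (SE) in S51 (adjusted p = 0.000447) and 1.13 ± 0.16 in S51A (adjusted p = 1.51e-05, both edgeR). In total RNA the group means rose from 595 ± 18.8 (SD, n = 4) to 1225 ± 168 CPM in S51 and from 1108 ± 56.6 to 2359 ± 324 CPM in S51A. The log2 differences in total RNA, 1.04 ± 0.08 (SE) and 1.09 ± 0.08, were nearly equal between the lines.

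Hspb8 (HSP22), the partner of BAG3 in delivering clients to autophagy, had the lowest RPF level per length of the 4 genes that rose. RPF levels were 13.5, 28.0 and 22.7 CPM in S51 vehicle and 68.4, 81.3, 66.2 and 73.9 CPM in S51 bortezomib. They were 34.1, 39.9, 39.0 and 28.0 CPM in S51A vehicle and 82.2, 97.0, 109 and 112 CPM in S51A bortezomib. Every treated library lay above every vehicle library of both lines. The log2 difference in RPF was 1.77 ± 0.19 (SE) in S51 and 1.51 ± 0.15 in S51A, and in total RNA 1.73 ± 0.08 and 1.36 ± 0.08, with adjusted p-values of at most 4.02e-07 by edgeR. A lncRNA, Gm36841, overlaps Hspb8 on the opposite strand, and the sources used here do not state whether counting used strand.

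Cryab (αB-crystallin), a small heat shock protein best known from lens and muscle, had the widest spread between groups. RPF levels were 40.4, 62.4 and 41.8 CPM in S51 vehicle and 99.0, 165, 124 and 134 CPM in S51 bortezomib. In S51A cells they were 98.1, 116, 100.0 and 80.3 CPM with vehicle and 267, 518, 402 and 556 CPM with bortezomib. S51A cells under vehicle overlapped with S51 cells under bortezomib, and S51A cells under bortezomib lay above every other library. The log2 difference in RPF was 1.46 ± 0.23 (SE, adjusted p = 5.36e-05) in S51 and 2.14 ± 0.19 (adjusted p = 2.89e-08, both edgeR) in S51A. In total RNA it was 1.14 ± 0.13 in S51 and 1.84 ± 0.12 in S51A. In both bortezomib groups, replicates 2 and 4 were higher than replicates 1 and 3 for Hspb1 and Bag3 in RPF and total RNA and for Cryab in RPF. For Cryab in total RNA this held in S51A and not in S51. Cryab shares stretches with Hspb2 and 2310030G06Rik on the opposite strand, and Hspb2 itself had at most 2 RPF counts and 4 total RNA counts in any library.

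Bag3, the stress-induced BAG gene, rose in both lines, by more than Hspb1. RPF levels were 175, 241 and 142 CPM in S51 vehicle and 563, 681, 511 and 692 CPM in S51 bortezomib. They were 175, 182, 173 and 154 CPM in S51A vehicle and 506, 756, 578 and 905 CPM in S51A bortezomib. Vehicle libraries of both lines overlapped, treated libraries of both lines overlapped, and no treated library came near a vehicle library. The log2 difference in RPF was 1.73 ± 0.18 (SE) in S51 and 2.01 ± 0.16 in S51A, and in total RNA 1.89 ± 0.09 and 1.96 ± 0.09, with adjusted p-values of at most 2.47e-07 by edgeR. In total RNA, which had the deeper counts, vehicle means were 29.8 ± 1.26 (SD, n = 4) CPM in S51 and 33.6 ± 0.568 CPM in S51A, and treated means 110.3 ± 8.82 and 130.4 ± 23.1 CPM.

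**Figure D2:**
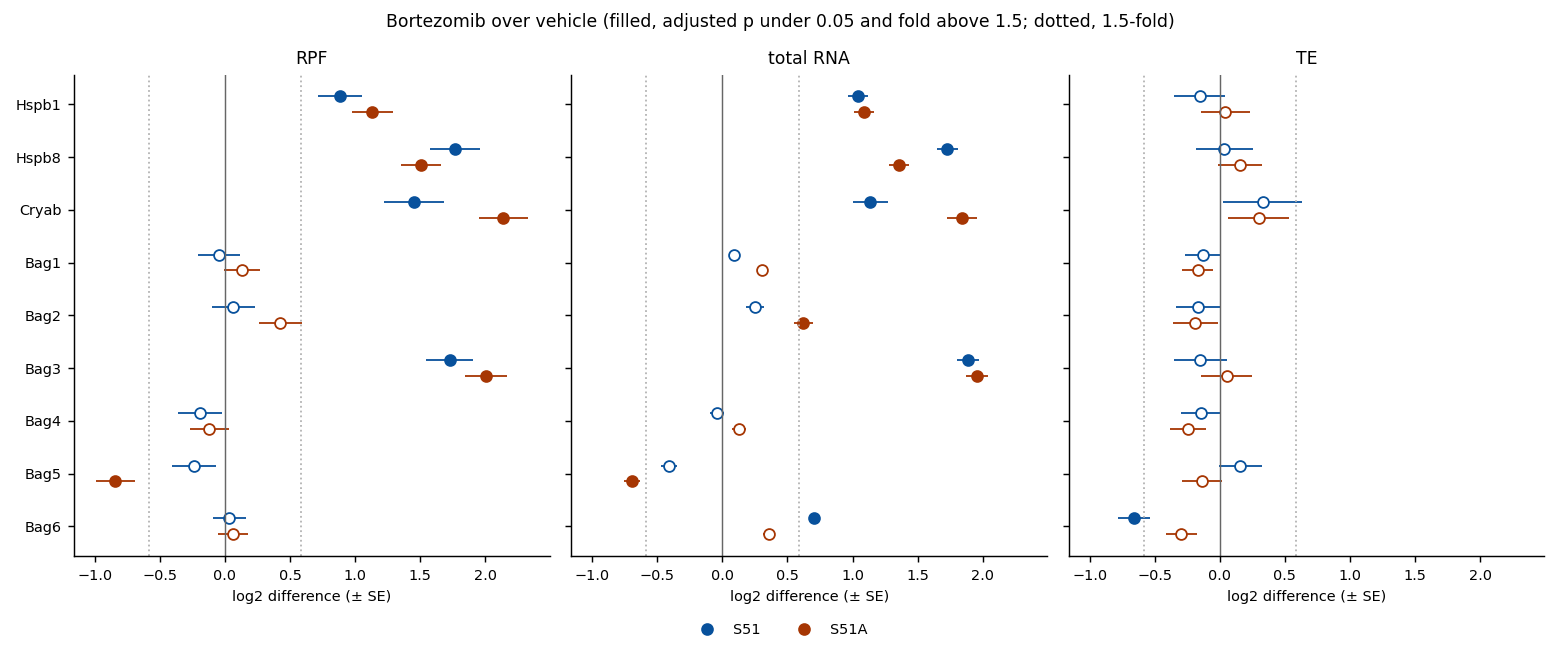
Log2 difference of bortezomib over vehicle for each member in S51 (blue) and S51A (brown), for RPF, total RNA and TE, the RPF change beyond that of total RNA. Horizontal bars are SE, filled points passed the test with a fold above 1.5, and dotted lines mark 1.5-fold. Hspb1, Hspb8, Cryab and Bag3 are filled in both lines for RPF and total RNA, and Bag6 in S51 is the filled point for TE.

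Bag5 was the member that fell. It encodes a BAG protein with several BAG domains. RPF levels were 34.4, 21.8 and 32.4 CPM in S51 vehicle, 24.7, 26.8, 27.6 and 22.4 CPM in S51 bortezomib, 31.8, 34.2, 36.9 and 32.9 CPM in S51A vehicle and 22.6, 18.0, 16.6 and 17.4 CPM in S51A bortezomib. The S51A groups did not overlap and the S51 groups did. In RPF the log2 difference was -0.84 ± 0.15 (SE, adjusted p = 0.000301) in S51A and -0.24 ± 0.17 (adjusted p = 0.297, both edgeR) in S51, where the 95% interval ran from -0.58 to 0.11. In total RNA, Bag5 decreased from 54.5 ± 2.89 (SD, n = 4) to 33.6 ± 3.32 CPM in S51A, a log2 difference of -0.70 ± 0.06 (SE). From 48.9 ± 2.67 to 36.9 ± 1.91 CPM, the total RNA difference in S51, -0.41 ± 0.06, passed the adjusted p (3.32e-06, edgeR) but stayed under 1.5-fold.

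Bag6 encodes the scaffold of a complex that guards tail-anchored and mislocalized membrane proteins in the cytosol. Its total RNA rose from 50.6, 44.1, 45.4 and 45.9 CPM to 75.4, 78.1, 75.3 and 74.6 CPM in S51, a log2 difference of 0.71 ± 0.04 (SE, adjusted p = 6.92e-13, edgeR), which was 0.55, under 1.5-fold, with unscaled library sizes instead of TMM. In S51A it went from 48.4, 47.5, 50.01 and 49.99 CPM to 62.7, 63.9, 64.1 and 60.6 CPM, a log2 difference of 0.36 ± 0.04 that passed the adjusted p (1.49e-07, edgeR) under 1.5-fold. Treated and vehicle libraries of total RNA did not overlap in either line. RPF levels, by contrast, were 221, 335 and 204 CPM in S51 vehicle and 253, 266, 250.02 and 263 CPM in S51 bortezomib, with overlapping groups. In S51A, RPF levels were 232, 227, 228 and 214 CPM with vehicle and 210.1, 239.8, 241 and 251 CPM with bortezomib. The RPF differences, 0.03 ± 0.12 and 0.06 ± 0.11 on the log2 scale, did not pass the test, with 95% intervals of -0.22 to 0.29 and -0.17 to 0.30.

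TE, the RPF change beyond that of total RNA, was tested in a single model over all 31 libraries. For S51 bortezomib over vehicle, 1 of 9 members was called, Bag6, beside 5.28% of all genes tested. Its log2 difference in TE was -0.66 ± 0.12 (SE, adjusted p = 0.000291, edgeR), and it came to -0.43 (adjusted p = 0.000184, under 1.5-fold) without replicate 2 of RPF S51 vehicle. The ratio of RPF to total RNA CPM in the lysates was 4.36, 7.58 and 4.49 in S51 vehicle and 3.35, 3.40, 3.32 and 3.52 in S51 bortezomib, which did not overlap. In S51A the ratio was 4.80, 4.79, 4.56 and 4.28 with vehicle and 3.35, 3.75, 3.77 and 4.14 with bortezomib, again without overlap, and the log2 difference in TE was -0.30 ± 0.12 (adjusted p = 0.502, edgeR). For S51A bortezomib over vehicle 0 of 9 members were called by edgeR, 1 at an unadjusted p below 0.05 and 0 by DESeq2, beside 0.987% of all genes. For the difference of the lines' responses in TE, 0 of 9 members were called by edgeR, 1 at an unadjusted p below 0.05 and 0 by DESeq2, beside 1.29% of all genes. That 1 was Bag6, at -0.36 ± 0.17 (adjusted p = 0.39, edgeR).

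**Figure D3:**
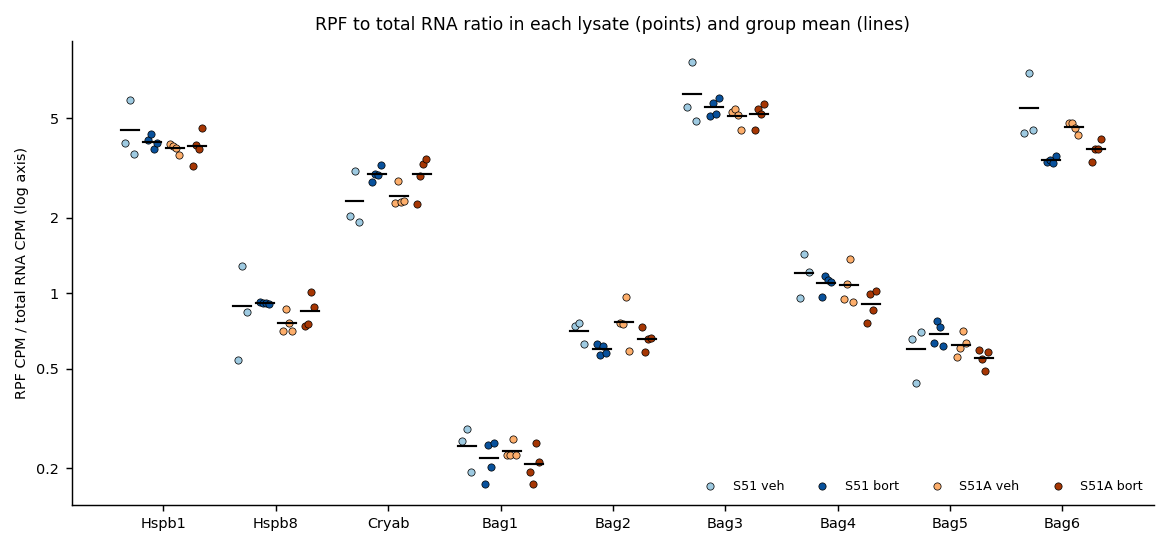
Ratio of RPF CPM to total RNA CPM in each lysate (points, log axis) and the group mean (lines) for the 9 members. For Bag6 both bortezomib groups lie below the vehicle group of the same line, and replicate 2 of S51 vehicle has a ratio of 7.58. Ratios compare groups within a gene, since gene length is not divided out.

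For the 4 genes that rose in both lines no TE difference passed the test. In S51 the log2 differences in TE were -0.16 ± 0.20 (SE) for Hspb1, 0.03 ± 0.22 for Hspb8, 0.33 ± 0.31 for Cryab and -0.15 ± 0.21 for Bag3. In S51A they were 0.04 ± 0.19, 0.15 ± 0.17, 0.30 ± 0.23 and 0.05 ± 0.20 in the same order. The 95% intervals of Cryab reached 0.95 in S51 and 0.77 in S51A, so that a TE change above 1.5-fold lay within them.

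Bag1 and Bag4 were called in neither line. Bag1, which couples HSP70 to the proteasome, had group means of 41.6 to 46.4 CPM in RPF, and its total RNA rose by 0.31 ± 0.04 (SE) on the log2 scale in S51A (adjusted p = 1.26e-07, edgeR, under 1.5-fold). Bag4, known as a silencer of death receptors, had group means of 33.3 to 38.5 CPM in RPF and 30.5 to 37.0 CPM in total RNA. It overlaps the lncRNA Gm17484 on the opposite strand and the pseudogene Gm19075 on its own. Bag2, an inhibitor of the ubiquitin ligase CHIP, rose in S51A total RNA from 16.7 ± 1.73 (SD, n = 4) to 25.7 ± 1.55 CPM, a log2 difference of 0.62 ± 0.07 (SE, adjusted p = 1.16e-07, edgeR). That value lies just above 1.5-fold, and it was 0.58 without S51A vehicle replicate 1 or without replicate 3 of that group, and 0.51 with unscaled library sizes. In RPF, Bag2 went from 12.7 ± 1.87 to 16.9 ± 1.51 CPM in S51A, without overlap, at an adjusted p of 0.0677 (edgeR). In S51 the RPF of Bag2 was 23.7 ± 3.71 CPM (SD, n = 3) with vehicle and 24.4 ± 0.951 CPM (n = 4) with bortezomib.

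The lines differed before any treatment, among the members in Hspb1, Hspb8, Cryab and Bag2. For S51A vehicle over S51 vehicle, 4 of 9 members were called in RPF and 4 of 9 in total RNA, 3 higher and 1 lower in each, beside 15.8% and 17.5% of all genes tested. Hspb1, Hspb8 and Cryab were higher in S51A. Their log2 differences in total RNA were 0.90 ± 0.08 (SE), 0.95 ± 0.09 and 1.02 ± 0.13, with adjusted p-values of at most 3.74e-07 by edgeR, and the libraries did not overlap. In RPF they were 0.65 ± 0.17, 0.73 ± 0.19 and 1.06 ± 0.22. The RPF calls of Hspb1 and Hspb8 were each lost without a single S51 vehicle library, Hspb1 at 0.47 without replicate 3 and Hspb8 at 0.49 (adjusted p = 0.053, edgeR) without replicate 1. Bag2 was lower in S51A, at a log2 difference of -1.04 ± 0.07 in total RNA and -0.89 ± 0.16 in RPF. Bag1, Bag3, Bag4, Bag5 and Bag6 were not called between the vehicle groups. Their differences in total RNA lay between 0.02 and 0.17, and that of Bag5, 0.16 ± 0.06, passed the adjusted p (0.0228, edgeR). In RPF the 5 lay between -0.16 and 0.18. In TE 0 of 9 members were called by edgeR, 0 at an unadjusted p below 0.05 and 0 by DESeq2, beside 0.0849% of all genes.

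Under bortezomib Cryab and Hspb1 were called between the lines in RPF and total RNA, and Bag2 in total RNA alone. Hspb8 was not called, although its libraries did not overlap between the lines in either kind. For S51 bortezomib over S51A bortezomib, 2 of 9 members were called in RPF, both lower, beside 17.7% of all genes tested. In total RNA 3 of 9 were called, 2 lower and 1 higher, beside 20% of all genes. With so few members these counts are not far from the shares of all genes. Cryab was lower in S51, with log2 differences of -1.74 ± 0.19 (SE) in RPF and -1.73 ± 0.12 in total RNA. Hspb1 was lower too, with differences of -0.89 ± 0.15 and -0.95 ± 0.08. Hspb8 differed by -0.47 ± 0.15 in RPF (adjusted p = 0.0224) and by -0.58 ± 0.07 in total RNA (adjusted p = 2.24e-07, both edgeR), just under 1.5-fold. In total RNA Hspb8 was called with unscaled library sizes (-0.63) and with at least 10 counts in every library (-0.587). It was also called without some single libraries, at -0.59 to -0.64. Bag2 was higher in S51, at 0.67 ± 0.07 in total RNA and 0.52 ± 0.16 in RPF (adjusted p = 0.0182, edgeR, under 1.5-fold). Bag3 levels overlapped in RPF, and its total RNA difference of -0.24 ± 0.08 passed the adjusted p (0.00845, edgeR) under 1.5-fold. Bag1, Bag4 and Bag6 passed it in total RNA too, at -0.24, -0.28 and 0.27, which with the others made 8 of 9 members beside 65.7% of all genes at an adjusted p alone, against 4 of 9 beside 31.5% in RPF. Their RPF differences were -0.17, -0.0044 and 0.13. Bag5 differed by 0.13 in total RNA and 0.43 in RPF and passed in neither. In TE 0 of 9 members were called by edgeR, 0 at an unadjusted p below 0.05 and 0 by DESeq2, beside 3.08% of all genes. These comparisons share libraries with those of bortezomib over vehicle, so their values are set side by side only.

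**Figure D4:**
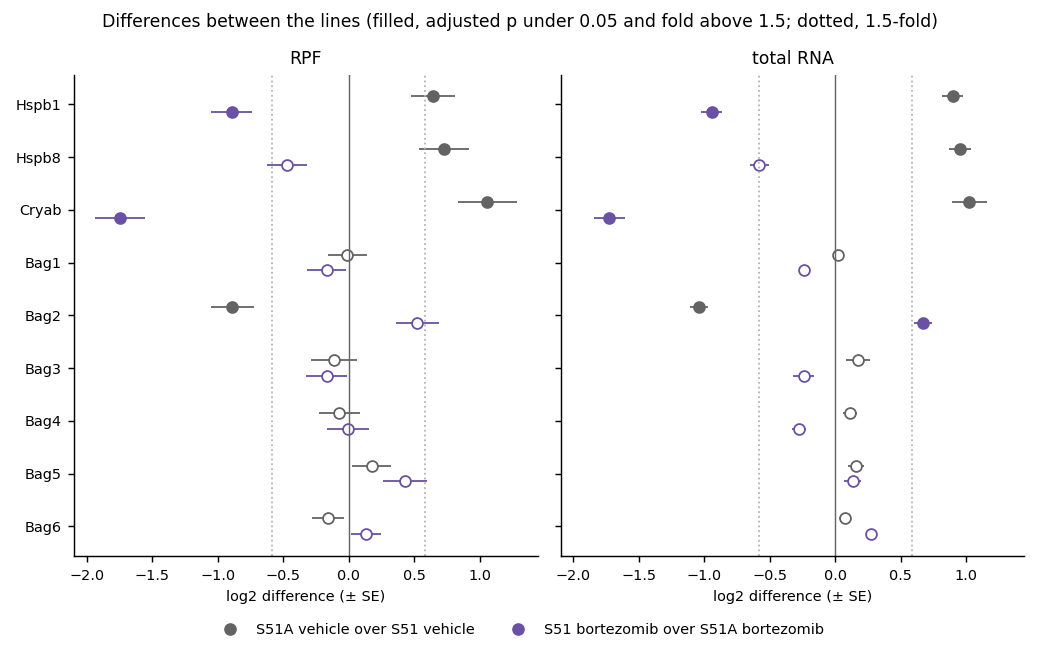
Log2 differences between the lines with vehicle (grey, S51A over S51) and with bortezomib (purple, S51 over S51A), in RPF and total RNA, with SE as horizontal bars. Filled points passed the test with a fold above 1.5. Hspb1 and Cryab are filled on opposite sides because the 2 contrasts run in opposite directions, and S51A is the higher line in both.

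The response itself was then compared between lines, as the log2 difference in S51 minus that in S51A. In RPF 0 of 9 members were called by edgeR, 2 at an unadjusted p below 0.05 (Cryab and Bag5) and 0 by DESeq2, beside 1.86% of all genes tested. In total RNA 1 of 9 was called, Cryab, beside 2.09% of all genes. Cryab rose less in S51, with a difference of -0.70 ± 0.18 (SE, adjusted p = 0.00589, edgeR) in total RNA, and the RPF difference was -0.68 ± 0.29 (adjusted p = 0.249, edgeR). A further 5 members passed the adjusted p in total RNA with differences under 1.5-fold, which makes 6 of 9, beside 21.6% of all genes at an adjusted p alone. Hspb8 and Bag6 rose more in S51, by 0.37 ± 0.11 and 0.35 ± 0.06, and Bag1 and Bag2 rose less, with differences of -0.22 ± 0.05 and -0.37 ± 0.10. Bag5 fell less in S51, with a difference of 0.29 ± 0.09. For Hspb1 and Bag3 the total RNA differences were -0.05 (95% interval -0.27 to 0.18) and -0.07 (-0.32 to 0.18), intervals that leave out a difference of 1.5-fold.

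Levels were compared between genes per length, as RPF CPM per kilobase of the counted coding sequence and total RNA CPM per kilobase of exons in S51 vehicle. Hspb1 stood at 4714 ± 1157 (SD, n = 3) RPF CPM per kilobase, above 99.6% of 9410 genes tested in both kinds of library. Bag3 at 111 ± 30.2 and Cryab at 103 ± 26.3 did not differ beyond their spread, nor did Bag1, Bag2 and Hspb8 at 42.7 ± 6.72, 41.4 ± 6.47 and 40.3 ± 13.9. Bag6 stood at 69.6 ± 19.6, and Bag4 and Bag5 at 29.3 ± 6.90 and 22.97 ± 5.28. The spread of Bag6 overlapped that of Cryab, and the spread of Bag4 those of Hspb8 and Bag5. With bortezomib Hspb1 reached 16182.5 ± 4135 RPF CPM per kilobase in S51A, and the 3 small heat shock proteins together took 0.954% of all RPF counts there, against 0.279% in S51 vehicle (group means). The methods of the authors do not say which regions were counted for total RNA, so the use of exon length there is an assumption. The ratio of RPF to total RNA per length separated the family. It was 9.66 for Bag3, 8.29 for Cryab, 7.15 for Hspb1 and 5.87 for Bag6, all above 92% of genes, and 0.324 for Bag1, above 1.51% of genes. With the mean length over transcripts the ratio of Cryab was 5.49, above 90.5% of genes and below the 5.98 of Bag6, and that of Bag1 was 0.406.

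Likeness was measured as the root mean square difference between 2 genes in the 8 group means (log2 CPM, centred within each kind of library), over 9424 genes. The genes nearest to Bag3 were Ahsa2, Mocos and Ccdc117, at 0.0925, 0.14 and 0.141. For Hspb8 they were Kdelr3, Dnajb2 and Dnajb4, at 0.156, 0.159 and 0.16, of which Dnajb2 and Dnajb4 encode J-domain partners of HSP70. Nearest to Hspb1 were Pgpep1, Gpr132 and Cd14, at 0.0778, 0.106 and 0.113. Cryab had no close match, with Ak1, Arc and Ndrg4 at 0.235, 0.313 and 0.313. Of the other BAG genes, 4 were matched by Ubxn2a, Slc35e1 and Cox6b1 (Bag1), Snapc5, Rgs2 and Dync1li2 (Bag2), Mrrf, Cbr2 and Etfb (Bag4) and Adamts1, Sowahc and Pcgf5 (Bag5), at differences of 0.032 to 0.134. Among the members, the closest pair was Bag1 and Bag4 at 0.0966, and Bag3 was nearer to Hspb8, at 0.344, than to any BAG gene.

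A list of 31 partners of these proteins (HSP70 partners, selective autophagy partners, the BAG6 complex, other small heat shock proteins and heat shock factors) was counted in the same way. In RPF 23 of them were tested, and for S51 bortezomib over vehicle 11 were called higher and 1 lower, beside 18.6% of all genes, at a median log2 difference of 0.56. For S51A bortezomib over vehicle 8 were higher and 0 lower (8 called by DESeq2), beside 10.9% of all genes, at a median of 0.21. There 13 passed an unadjusted p below 0.05 in either direction. At an adjusted p alone, a stricter cut, 20.6% of all genes passed. In total RNA 25 were tested, with 9 higher in S51 and 8 in S51A, beside 15.3% and 13.1% of all genes. Of 8 HSP70 partners, 6 were higher in both lines and both kinds of library. The highest in RPF were Hspa1a and Hspa1b, the stress-inducible HSP70 genes, then Hsph1, an HSP110 exchange factor, at 2.76 ± 0.19 (SE) in S51 and 2.85 ± 0.17 in S51A, and Dnaja1, a J-domain protein, at 2.51 ± 0.18 and 2.16 ± 0.16. Hspa1a and Hspa1b are near-identical copies, so unique mapping makes each uncertain. Hspa1a had 1 to 3 RPF counts in S51 vehicle libraries and 96 to 298 with bortezomib, a ratio of library shares of 189 with an exact 95% interval of 80.6 to 583 that covers counting error only. Hspa1b differed by 4.96 ± 0.21 in S51.

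**Figure D5:**
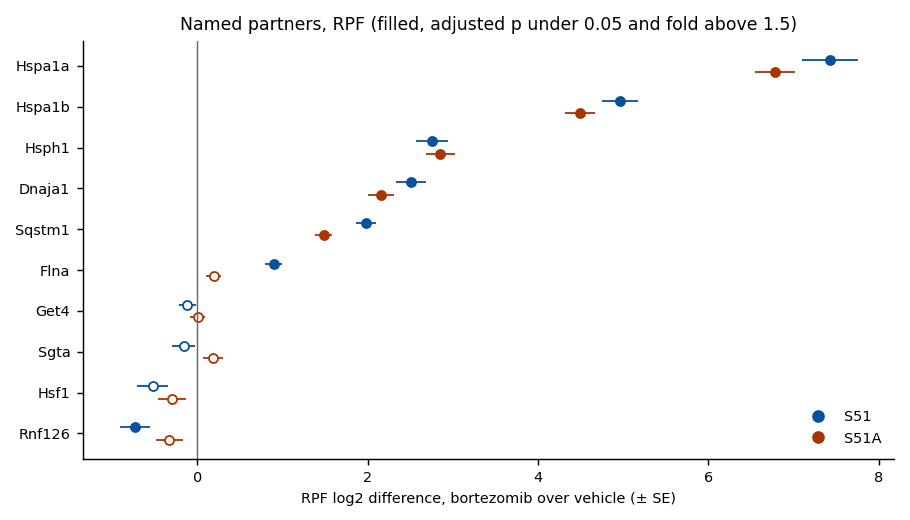
RPF log2 difference of bortezomib over vehicle, with SE, for the 10 listed partners named in the text, in S51 (blue) and S51A (brown), ordered by the S51 value. Filled points passed the test with a fold above 1.5. The upper rows are HSP70 partners and Sqstm1, filled in both lines, and Flna is filled in S51 alone and passed the test of the difference between lines.

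The lowest listed partners in S51 RPF were Rnf126, the ubiquitin ligase that works with BAG6, Hsf1, Sgta and Get4. Rnf126 fell by 0.73 ± 0.17 (SE, adjusted p = 0.00288, edgeR), and its log2 difference was -0.42, under 1.5-fold, without replicate 2 of RPF S51 vehicle. Hsf1 differed by -0.52 ± 0.18 (adjusted p = 0.0343, edgeR, under 1.5-fold), and Sgta and Get4 by -0.16 ± 0.13 and -0.11 ± 0.10. The difference of responses called 1 partner in each kind of library, beside 1.86% of all genes in RPF and 2.09% in total RNA. The RPF count was 4 without S51 vehicle replicate 2, 3 without S51 bortezomib replicate 1, 2 without S51A vehicle replicate 4 and 2 by DESeq2. Flna, a filamin that BAG3 handles as a client, rose more in S51 in RPF, by 0.70 ± 0.13 (adjusted p = 0.00351, edgeR). Sqstm1 (p62), the receptor that brings ubiquitylated cargo to autophagosomes, rose more in S51 in total RNA, by 0.65 ± 0.08 (adjusted p = 7.98e-06, edgeR), from 199.9 ± 12.97 (SD, n = 4) to 830.1 ± 43.4 CPM in S51 and from 255 ± 25.6 to 674 ± 45.2 CPM in S51A. Between the vehicle groups 3 of 23 partners were higher in S51A in RPF, and 3 of 25 higher and 1 lower in total RNA, beside 15.8% and 17.5% of all genes. Under bortezomib 3 of 23 in RPF and 4 of 25 in total RNA were lower in S51 and 0 were higher, and 3 and 2 were called by DESeq2. Of all genes, 17.7% and 20% were called in either direction. At an unadjusted p below 0.05, 9 and 14 partners passed in either direction. At an adjusted p alone, a stricter cut, 31.5% and 65.7% of all genes passed. In TE 0 of 23 partners were called in any of the 5 comparisons by edgeR or DESeq2, with 1 to 6 at an unadjusted p below 0.05. For S51 bortezomib over vehicle the TE count was 2 without RPF S51 vehicle replicate 1, 2 without replicate 3 and 1 with unscaled library sizes instead of TMM. Of the 6 other small heat shock genes listed, Hspb6 alone passed the filter, in total RNA, and the others had at most 13 counts in any library.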

How the data were processed

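Per-gene read counts, whole numbers with no normalization, were deposited for both kinds of library, RPF and total RNA. The methods of the authors give FastX for trimming, bowtie2 against mm10 for alignment and plastid for counting, with RPF limited to coding sequence away from its ends, and the names of the deposited columns add unique mapping, marked duplicates and masked repeats. Unique mapping lowers the counts of near-identical copies. The submitters' processing notes name Bowtie2, featureCounts and DESeq2. The series states that the titles of S51 bortezomib and S51A vehicle were later exchanged while the data stayed in place, so columns of these groups were assigned through that statement. The paper's own counts, named by condition, hold each of these columns times a constant under the same condition and replicate. All columns were used.

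Counts were fitted in R 4.3.3 with edgeR 4.0.16 (TMM, filterByExpr at 10 counts and a total of 15, glmQLFit over all 4 groups, glmQLFTest), on 9457 genes for RPF and 11708 for total RNA. TE was tested as an interaction over 31 libraries on 9424 genes. Log2 CPM used a prior count of 2. The 95% intervals use the t quantile of that test. DESeq2 1.42.0 was an alternative, beside other scalings, filters, blocks, thresholds and the omission of single libraries. The steps were tested on simulated data. The members, the partner and marker lists and the tests were chosen with earlier results of these data known. All 9 members are given in the RPF and total RNA comparisons and by counts in TE, with 3 genes of nearest pattern for each (those of Bag6 are not reported here), and by name the 4 highest and 4 lowest listed partners in S51 RPF and those called in a difference of responses. Krt14, Col1a2, Cd68, Pdgfra, Hspb2 and Hspb6 were named after their values were seen. Within groups no library was a repeat of another. Replicates differed by a chi-square per gene of at least 1.64 in RPF and 2.69 in total RNA, against about 1 for sampling noise. Libraries of different groups were not compared in this way. RPF and total RNA came from the same lysates.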

Additional observations from a re-analysis of the deposited data

Results flagged for a closer look

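Of 63 sets of 4 libraries (a member in a group), 3 held a library far from the other 3 by Dixon's test, where about 1 in 20 sets would by chance. In RPF, S51A vehicle replicate 3 was high for Bag1 at 49.4 CPM. S51A bortezomib replicate 2 was low for Bag2 at 14.6 CPM, and S51 bortezomib replicate 4 was low for Bag2 at 22.97 CPM.

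The response to bortezomib differed between the lines in total RNA for 6 members by the interaction test of edgeR (adjusted p below 0.05), a threshold that 21.6% of all genes tested passed. As S51 minus S51A on the log2 scale, the differences were -0.70 for Cryab, -0.37 for Bag2, -0.22 for Bag1, 0.29 for Bag5, 0.35 for Bag6 and 0.37 for Hspb8. Only the difference of Cryab exceeded 1.5-fold, and the RPF differences of all 6 missed the adjusted p.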

How the results depend on the processing

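The alternatives were DESeq2, RLE factors, library sizes alone, no filter, at least 10 counts in every library, only the groups compared, a replicate block, a lysate block for TE, an adjusted p alone, a fold above 2 and each library left out. Over 69 member values, 1776 of 1825 refits kept call and direction, 23 lost the call, 25 gained it and 1 turned: Bag1 in S51 total RNA was -0.064 with library sizes alone. That scaling shifted the median of all genes by -0.15 (S51) and -0.12 (S51A) in total RNA and by 0.15 in TE of S51 bortezomib over vehicle and 0.10 in TE of S51 over S51A bortezomib. With it, 0 members were called in TE of S51 bortezomib over vehicle, where Bag6 stood at -0.51, total RNA of Bag6 in S51 and of Bag2 in S51A fell under 1.5-fold, and the share of called genes that were higher went from 37.3% to 19.4% in S51 total RNA, from 34.7% to 20.7% in S51A total RNA and from 19.7% to 61.5% in S51 TE. The replicate block changed no count of members called (4 in RPF of S51 bortezomib over vehicle); same-numbered libraries correlated at -0.16 to 0.26 in RPF and 0.0021 to 0.19 in total RNA (8 of 24 pairs over 0.1, against 0 of 72 pairs of different number). Not every pair passed 0.1, and the main fits did not take the numbers as pairing, which these correlations cannot exclude. As a hint from the data, 15 of 16 total RNA and 9 of 15 RPF libraries correlated best with their own number. With a fold above 2, the counts were 1 for RPF S51A over S51 vehicle (from 4), 1 for RPF S51 over S51A bortezomib (from 2), 2 for total RNA S51A over S51 vehicle (from 4), 1 for total RNA S51 over S51A bortezomib (from 3), 0 for the total RNA response difference (from 1) and 0 for TE in S51 (from 1). For bortezomib over vehicle, Hspb1 in S51 RPF (0.89), Bag5 in S51A RPF (-0.84) and Bag6 in S51 total RNA (0.71) also lost the call. So did Bag2 (0.62) and Bag5 (-0.70) in S51A total RNA. By adjusted p alone the counts were 4 for RPF S51 over S51A bortezomib (31.5% of all genes), and in total RNA 8 for S51 (59.8%), 9 for S51A (56.4%), 8 for S51 over S51A bortezomib (65.7%) and 6 for the response difference (21.6%). For total RNA S51A over S51 vehicle it was 5 (63.8%). Leaving out 1 library gave 3 to 4 members for RPF S51A over S51 vehicle, 5 to 6 for total RNA S51A, 3 to 4 for total RNA S51 over S51A bortezomib and 0 to 1 for TE in S51, and no change in the other counts. Without 1 library, Sgta in S51 RPF ran from -0.295 (S51 vehicle replicate 3) to 0.0345 (S51 vehicle replicate 2). Over all genes, TE of S51A over S51 vehicle called 8, against 32 by DESeq2, 5 with at least 10 counts in every library and 2 with the lysate block, and the TE response difference called 122, against 211 by DESeq2 and 64 with the lysate block. RPF of S51A over S51 vehicle called 1495, against 991 with at least 10 counts in every library. Only the groups compared gave no value for the response difference, which uses all groups. RPF depth limits TE, where the SE of the members ran to 0.39.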
